A study of Mus musculus with 8 samples.

Results

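The genes described here encode the hemidesmosome of the corneal epithelium and the laminin it binds. They are 9 genes taken by name: *Itga6*, *Itgb4*, *Itga3*, *Itgb1*, *Lama3*, *Lamb3*, *Plec*, *Dst* and *Cd151*. All 9 were found among the 54532 genes listed for whole corneas, and all 9 were among the 25402 genes compared between the strains. RNA came from 4 naive corneas of BALB/cN mice, which the sample labels call BALB/c, and from 4 naive corneas of C57BL/6N mice. Only male mice were used, no cornea had been treated, and the age of these mice is not given in the sources used here. Each cornea is taken as a replicate of its strain. The labels do not say whether corneas of a strain came from different animals, so that the p-values measure the spread between these samples only.

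A hemidesmosome is the junction by which a basal epithelial cell holds on to its basement membrane. Integrin α6β4 spans the basal cell membrane, binds laminin-332 outside the cell, and is linked inside the cell to keratin filaments by the plakins plectin and BP230. In the cornea these junctions keep the epithelium attached to the stroma, and inherited loss of their components causes blistering of skin and other stratified epithelia.

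Values are the authors' regularized log (rlog) values, expressed in log2 units after their normalization for library size. Raw counts were not used here, so the sequencing depth behind each value is unknown. Differences are BALB/cN minus C57BL/6N, with limma's standard error (SE), and a gene was called different where limma gave it a Benjamini-Hochberg adjusted p of at most 0.01 over all 25402 genes. Exact permutation tests over the 8 corneas are two-sided and cannot give a p-value below 0.0286.

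The corneas differed in tissue content. The corneal epithelium was well represented in all of them, with summed levels of its 10 markers between 20.71 and 20.91 on the log2 scale in BALB/cN and between 20.74 and 20.89 in C57BL/6N. Keratin 12 (*Krt12*), the keratin that defines this epithelium, lay between 19.60 and 19.85 in all corneas and differed by -0.00 between the strains (limma adjusted p = 0.989). The 10 stromal keratocyte markers were low in 3 corneas, with mean rlog values of 12.36 in BALB/cN replicate 2, 11.51 in C57BL/6N replicate 3 and 11.63 in C57BL/6N replicate 4, against 13.99 to 14.32 in the other 5. The summed markers of lens and pigment cells were high in BALB/cN replicates 1 and 4, where lens markers reached 12.07 and 11.04 against 8.80 to 9.48 elsewhere and pigment cell markers reached 13.57 and 14.55 against 9.13 to 11.72. The summed level of 8 conjunctival markers, which is set almost wholly by the mucin *Muc4*, was 19.14 to 19.57 in the BALB/cN corneas and 19.72 to 19.98 in the C57BL/6N corneas, without overlap. *Muc4* alone (19.14 to 19.95 over the corneas) was near the level of *Krt12*, so this sum does not by itself show a difference in conjunctival tissue. A bulk cornea does not tell fewer cells of a type from less RNA per cell. The C57BL/6N corneas were not evenly spread. Over 5642 genes with a mean rlog of 10 or more, replicates 1 and 2 differed with an SD of 0.103. Replicates 3 and 4 differed with an SD of 0.132, and the other C57BL/6N pairs with SDs of 0.363 to 0.385. Whether the close pairs are independent samples was not tested.

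Of the 9 genes, 1 was called higher and 1 lower in the BALB/cN corneas. *Lama3*, the α chain of laminin-332, was higher in BALB/cN by 0.68 on the rlog scale, a ratio of 1.60. *Itga6*, the α chain of the hemidesmosomal integrin α6β4, was lower by 0.47, a ratio of 0.724. The 2 called genes are 22.2% of the 9, and 5.74% of all genes tested were called (2.83% higher, 2.91% lower in BALB/cN). In 6 of the 9 genes (66.7%) no value of one strain fell within the range of the other. The BALB/cN values were above in 5 of them and below in 1, where 18.3% of all genes tested showed such separation (8.75% higher, 9.58% lower). The difference was positive in 8 of the 9 genes, with a median of 0.23 against 0.01 for all genes tested. The median size of the difference, without its sign, was 0.23 for the 9 genes and 0.09 for all genes. The 9 genes are well expressed, with strain means of 11.18 or more, whereas the genes tested ran down to a mean of 0. Among the 18762 genes with a mean of at least log2(10), 8.30% were called, and 3 of the 9. The part of expression level in these contrasts was not tested.

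**Figure D1:**
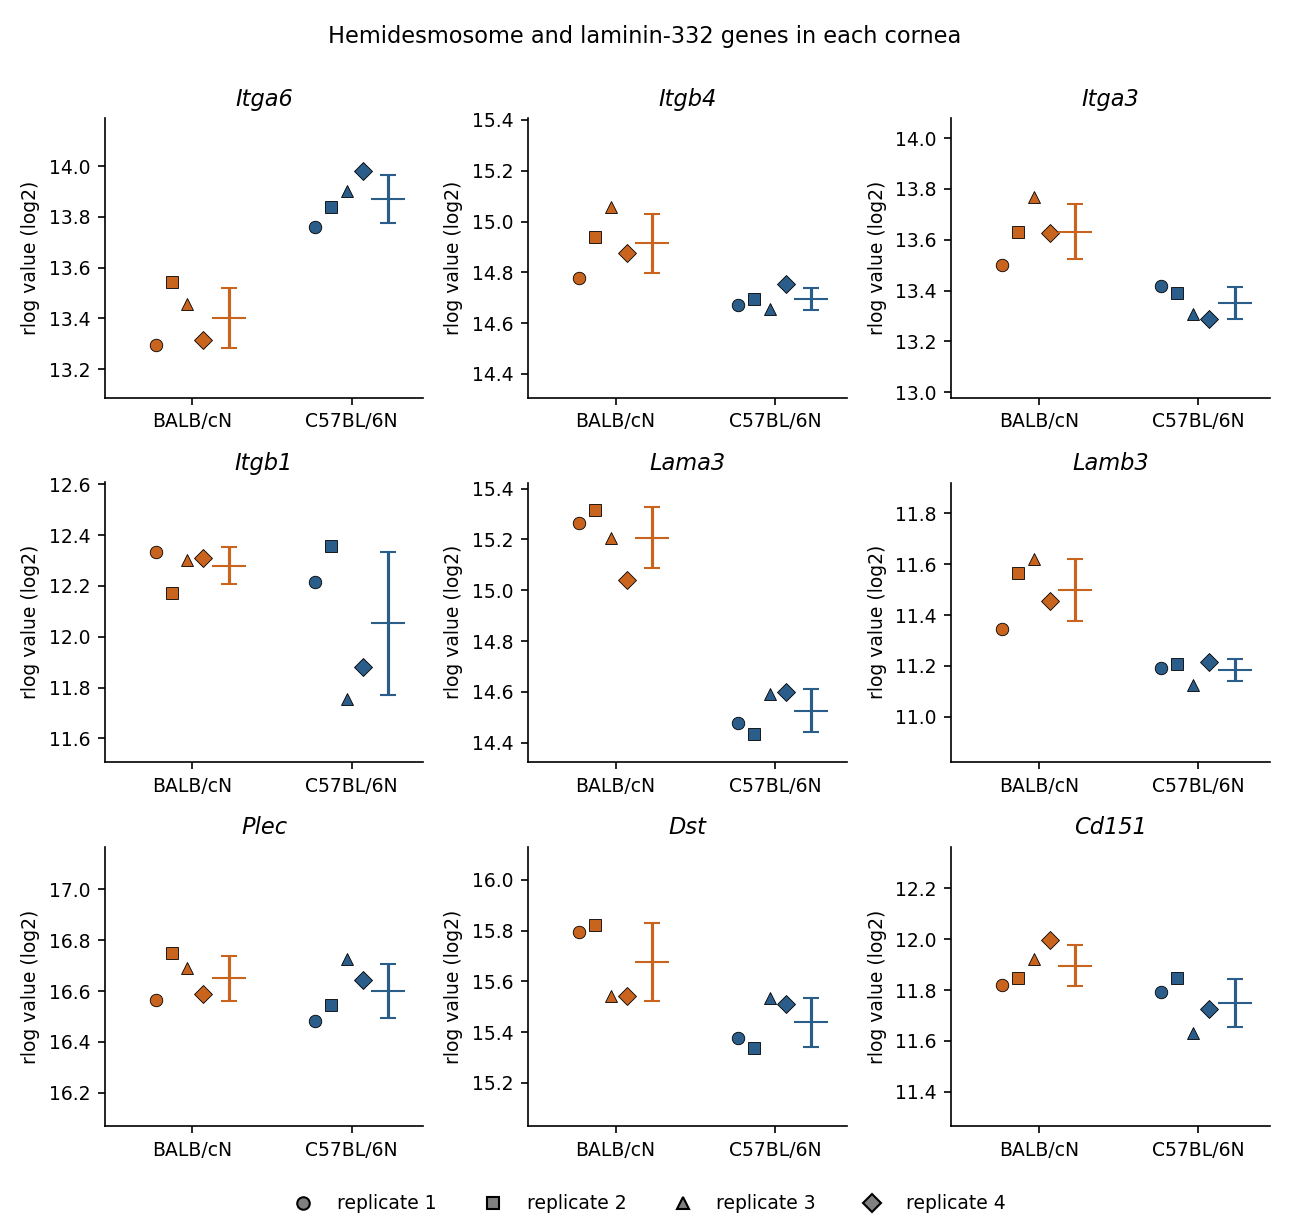
rlog values (log2 scale) of the 9 genes in each of 4 BALB/cN (orange) and 4 C57BL/6N (blue) corneas. The marker shape gives the replicate number, and the bar gives the mean and SD of each strain. All panels span the same number of rlog units, and the strains stand clearly apart in *Itga6* and *Lama3* while *Itgb1*, *Plec* and *Cd151* overlap.

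*Itga6* (ENSMUSG00000027111) lies on the plus strand at chr2:71745616-71858416 of GRCm38. Its rlog values were 13.30, 13.54, 13.46 and 13.32 in BALB/cN replicates 1 to 4. In C57BL/6N replicates 1 to 4 they were 13.76, 13.84, 13.90 and 13.98. The lowest C57BL/6N cornea stood 0.22 above the highest BALB/cN cornea. The means were 13.40 ± 0.12 and 13.87 ± 0.09 (SD, n = 4 each), and the difference of -0.47 (SE 0.0697, 95% interval -0.62 to -0.31) had an adjusted p of 0.00216 in limma. Leaving out any 1 cornea gave differences between -0.51 and -0.43, called in 8 of 8 fits. Without the corneas of BALB/cN replicates 1 and 4, in which lens and pigment markers were high and *Itga6* was lowest, the difference was -0.37 and was no longer called (limma adjusted p = 0.0404). With the rlog values centred on each cornea's median it was -0.54, also not called (limma adjusted p = 0.0191).

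*Itgb4* (ENSMUSG00000020758, plus strand, chr11:115974709-116008412) encodes the β4 chain, whose long cytoplasmic tail binds plectin and which pairs with α6 alone. The rlog values of this chain were 14.78, 14.94, 15.06 and 14.88 in BALB/cN and 14.67, 14.69, 14.65 and 14.75 in C57BL/6N. The BALB/cN corneas were all higher, but the gap between the nearest corneas was 0.03. The difference of 0.22 (SE 0.0601, 95% interval 0.09 to 0.35) was not called (limma adjusted p = 0.0451, exact permutation p = 0.0286). The 2 chains of α6β4 thus had differences of opposite sign. Within each cornea, *Itga6* minus *Itgb4* was -1.51 ± 0.09 in BALB/cN and -0.82 ± 0.07 in C57BL/6N (SD, n = 4 each). The strains did not overlap in this measure, which does not depend on how libraries are scaled. Its strain difference of -0.69 had an exact permutation p of 0.0286, which became 0.0571 after Benjamini-Hochberg adjustment over the 6 pairs of genes compared.

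The tetraspanin *Cd151* (ENSMUSG00000025510) associates with laminin-binding integrins and helps to organize them at the cell surface. Its rlog values of 11.82, 11.85, 11.92 and 11.997 in BALB/cN overlapped those of 11.79, 11.85, 11.63 and 11.73 in C57BL/6N. The difference of 0.15 (SE 0.0632, 95% interval 0.005 to 0.29) was not called (limma adjusted p = 0.196, exact permutation p = 0.0857). Set against its partner in the same cornea, *Cd151* minus *Itga6* was -1.51 ± 0.16 in BALB/cN and -2.12 ± 0.16 in C57BL/6N (SD, n = 4 each). The strains did not overlap here either, and the difference of 0.61 had an exact permutation p of 0.0286 and an adjusted p of 0.0571 over the 6 pairs.

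Integrin α3β1 is the other laminin-332 receptor of epithelial cells and sits outside hemidesmosomes, at sites linked to actin. *Itga3* (ENSMUSG00000001507, minus strand, chr11:95044474-95076801), its α chain, had rlog values of 13.50, 13.63, 13.77 and 13.63 in BALB/cN. The C57BL/6N values were 13.42, 13.39, 13.31 and 13.29, all below the lowest BALB/cN cornea. The difference of 0.28 (SE 0.0619, 95% interval 0.14 to 0.42) did not reach the threshold (limma adjusted p = 0.0177), nor did it without any 1 cornea (differences of 0.23 to 0.32, called in 0 of 8 fits).

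*Itgb1* (ENSMUSG00000025809, plus strand, chr8:128685654-128733200) encodes the β1 chain shared by many integrins in most cell types, so that a whole cornea measures it in every layer. It was the most variable of the 9 genes among C57BL/6N corneas. Its rlog values were 12.33, 12.17, 12.30 and 12.31 in BALB/cN and 12.21, 12.36, 11.76 and 11.88 in C57BL/6N. The 3 lowest values of *Itgb1* were in the 3 corneas with low stromal markers. Within C57BL/6N, the stroma-poor replicates 3 and 4 were 0.47 lower in *Itgb1* than replicates 1 and 2, while the stromal proteoglycan gene *Kera* was 4.72 lower and *Krt12* was 0.18 higher. The strain difference of 0.23 (SE 0.122, 95% interval -0.05 to 0.50) was not called (limma adjusted p = 0.301). It was 0.03 without the 3 stroma-poor corneas. Set against the β1 chain, neither *Itgb4* nor *Itga3* differed between strains beyond the spread between corneas. *Itgb4* minus *Itgb1* was 2.63 ± 0.16 in BALB/cN and 2.64 ± 0.29 in C57BL/6N (SD, n = 4 each; exact permutation p = 0.914). *Itga3* minus *Itgb1* ran from 1.17 to 1.47 in BALB/cN and from 1.04 to 1.55 in C57BL/6N (exact permutation p = 0.686).

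**Figure D2:**
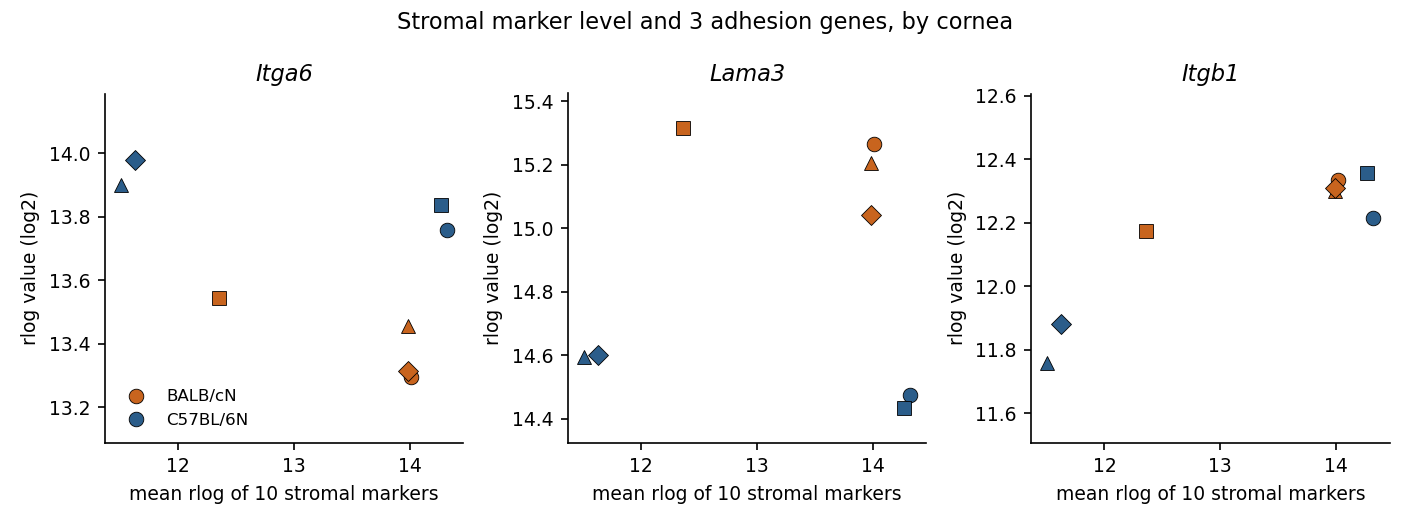
rlog values of *Itga6*, *Lama3* and *Itgb1* (vertical axes, log2 scale) against the mean rlog value of 10 stromal keratocyte markers (horizontal axes) in 8 corneas, with BALB/cN in orange and C57BL/6N in blue and the replicate number as marker shape. *Itgb1* was lowest in the corneas with the lowest stromal marker mean, whereas *Itga6* and *Lama3* separated the strains at both low and high stromal levels.

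Laminin-332 is the basement membrane ligand of these integrins, and *Lama3* and *Lamb3* encode its α3 and β3 chains. *Lama3* (ENSMUSG00000024421, on chromosome 18) had rlog values of 15.27, 15.31, 15.21 and 15.04 in BALB/cN and of 14.48, 14.43, 14.59 and 14.60 in C57BL/6N. The lowest BALB/cN cornea stood 0.44 above the highest C57BL/6N cornea, the widest gap of the 9 genes. The means were 15.21 ± 0.12 and 14.53 ± 0.08 (SD, n = 4 each), and the difference of 0.68 (SE 0.0672, 95% interval 0.53 to 0.83) had an adjusted p of 0.000164 in limma. It was 0.64 to 0.74 without any 1 cornea and called in 8 of 8 fits. Without the lens and pigment corneas it was 0.73, and without the stroma-poor corneas 0.72, called in both.

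*Lamb3* (ENSMUSG00000026639, plus strand, chr1:193207699-193343878), the β3 chain, was also higher in every BALB/cN cornea, by a smaller amount. Its rlog values were 11.34, 11.57, 11.62 and 11.46 in BALB/cN and 11.19, 11.21, 11.12 and 11.21 in C57BL/6N. The difference of 0.31 (SE 0.0659, 95% interval 0.16 to 0.46) did not pass the threshold (limma adjusted p = 0.0141), but did so without BALB/cN replicate 1 (0.36, limma adjusted p = 0.00747). *Lama3* minus *Lamb3* was 3.71 ± 0.16 in BALB/cN and 3.34 ± 0.11 in C57BL/6N (SD, n = 4 each), with no overlap (difference 0.37, exact permutation p = 0.0286, adjusted p = 0.0571 over the 6 pairs).

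The plakins tie the integrin to keratin. *Plec* (ENSMUSG00000022565, minus strand, chr15:76170974-76232574) encodes plectin and had the smallest difference of the 9 genes. It reached rlog values of 16.57, 16.75, 16.69 and 16.59 in BALB/cN and 16.48, 16.55, 16.73 and 16.64 in C57BL/6N, which overlap. The difference of 0.05 (95% interval -0.09 to 0.19, limma adjusted p = 0.679) turned to -0.024 when the values were centred on each cornea's median. *Dst* (ENSMUSG00000026131, plus strand, chr1:33908225-34308661) encodes BP230 in epithelia, and also encodes longer proteins of nerve and muscle from other promoters. It had rlog values of 15.79, 15.82, 15.54 and 15.54 in BALB/cN and of 15.38, 15.34, 15.53 and 15.51 in C57BL/6N. BALB/cN replicates 1 and 2 were high, while replicates 3 and 4 lay 0.0076 or more above the highest C57BL/6N cornea, so that the strains are separated by almost nothing. The difference of 0.24 (SE 0.0793, 95% interval 0.06 to 0.41) was not called (limma adjusted p = 0.0992). *Plec* minus *Dst* was 0.97 ± 0.16 in BALB/cN and 1.16 ± 0.05 in C57BL/6N (SD, n = 4 each), which overlapped (exact permutation p = 0.0857). The transmembrane collagen XVII gene *Col17a1*, the remaining core component and not one of the 9 genes, had 17.09 ± 0.11 in BALB/cN and 17.18 ± 0.19 in C57BL/6N (SD, n = 4 each; difference -0.08, 95% interval -0.29 to 0.12, limma adjusted p = 0.629).

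**Figure D3:**
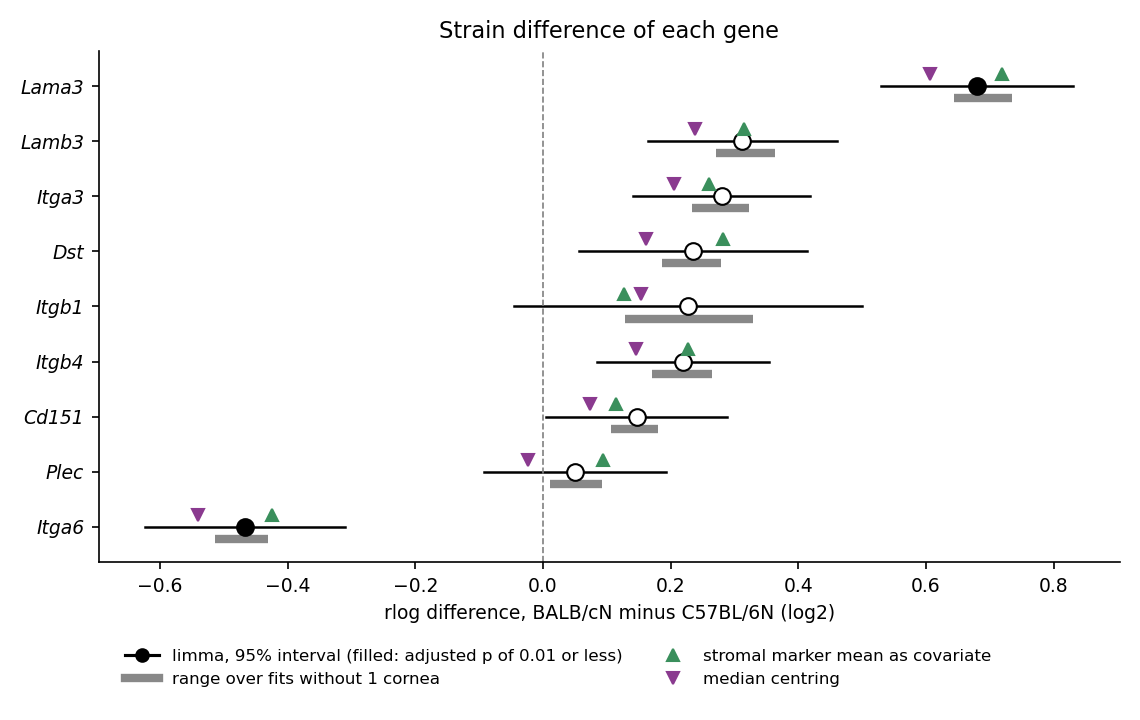
Strain difference of each of the 9 genes on the rlog scale (BALB/cN minus C57BL/6N, log2) with limma's 95% interval, filled where the adjusted p was 0.01 or less. Grey bars give the range over the 8 fits that each leave out 1 cornea, green triangles the fit with the stromal marker mean as a covariate, and purple triangles the values centred on each cornea's median; *Lama3* at 0.68 and *Itga6* at -0.47 are the called genes, and *Plec* is the gene whose sign depends on the centring.

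Promoter sequence is shown for genes whose BALB/cN values were all higher and for which RefSeq start sites were available on GRCm38.p6, as the stretch from 250 bases before to 50 bases after the start, 5′ to 3′ on the strand of the gene. The reference comes from C57BL/6J, so that bases of BALB/cN may differ. Capitals mark GC boxes (GGGCGG on either strand), found in 35.7% of 32851 such windows, and AP-1 sites (TGANTCA on either strand), found in 7.81%. Each of these 3 genes has 2 such windows, and its value pools them. Those of *Dst* are at chr1:34011345-34011644 (upstream) and chr1:34160010-34160309 (downstream). Those of *Itga3*, on the minus strand, are at chr11:95076665-95076964 (upstream) and chr11:95069149-95069448 (downstream). Those of *Lamb3*, which overlap, are at chr1:193301744-193302043 (upstream) and chr1:193301993-193302292 (downstream).
Dst upstream: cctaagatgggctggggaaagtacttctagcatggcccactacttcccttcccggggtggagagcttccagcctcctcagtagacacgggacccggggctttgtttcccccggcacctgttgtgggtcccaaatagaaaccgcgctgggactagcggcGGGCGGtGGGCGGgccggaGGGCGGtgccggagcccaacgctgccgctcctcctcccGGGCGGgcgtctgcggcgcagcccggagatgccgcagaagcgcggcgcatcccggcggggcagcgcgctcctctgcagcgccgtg
Dst downstream: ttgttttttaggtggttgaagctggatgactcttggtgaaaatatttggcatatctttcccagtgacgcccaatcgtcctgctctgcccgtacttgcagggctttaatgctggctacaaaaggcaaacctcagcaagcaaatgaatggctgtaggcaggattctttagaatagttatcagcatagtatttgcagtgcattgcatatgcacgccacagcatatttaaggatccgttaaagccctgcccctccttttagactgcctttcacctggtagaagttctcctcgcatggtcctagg
Itga3 upstream: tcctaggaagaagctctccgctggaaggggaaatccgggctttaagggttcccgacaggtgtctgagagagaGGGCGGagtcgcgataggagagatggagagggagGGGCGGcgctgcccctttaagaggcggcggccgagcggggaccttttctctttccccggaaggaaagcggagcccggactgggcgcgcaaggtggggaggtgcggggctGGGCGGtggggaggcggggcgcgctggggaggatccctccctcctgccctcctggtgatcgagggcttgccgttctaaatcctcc
Itga3 downstream: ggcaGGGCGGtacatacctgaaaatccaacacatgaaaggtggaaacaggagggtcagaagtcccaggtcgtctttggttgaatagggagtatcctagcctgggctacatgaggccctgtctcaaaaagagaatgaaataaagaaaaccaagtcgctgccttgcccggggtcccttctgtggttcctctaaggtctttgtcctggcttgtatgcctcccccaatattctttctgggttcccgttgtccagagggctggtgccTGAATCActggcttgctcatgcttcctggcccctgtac
Lamb3 upstream: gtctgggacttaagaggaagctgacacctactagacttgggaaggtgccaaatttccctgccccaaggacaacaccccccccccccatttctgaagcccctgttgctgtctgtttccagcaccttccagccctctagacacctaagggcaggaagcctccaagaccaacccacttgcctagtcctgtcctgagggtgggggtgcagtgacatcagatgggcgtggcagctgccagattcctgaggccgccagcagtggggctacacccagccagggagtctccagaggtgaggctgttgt
Lamb3 downstream: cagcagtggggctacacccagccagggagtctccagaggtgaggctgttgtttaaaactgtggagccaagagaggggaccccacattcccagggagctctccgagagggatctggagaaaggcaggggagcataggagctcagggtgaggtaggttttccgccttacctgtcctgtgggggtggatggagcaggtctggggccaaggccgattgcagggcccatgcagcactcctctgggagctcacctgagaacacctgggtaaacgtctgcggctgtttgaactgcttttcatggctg
The upstream *Dst* window held 4 GC boxes and the upstream *Itga3* window 3. The downstream *Itga3* window held 1 GC box and 1 AP-1 site. The downstream *Dst* window and both *Lamb3* windows held neither motif. None of these 6 windows held a TATA box (TATAAA on either strand, 13.6% of windows). A match is a description of the letters only.

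Values relative to the epithelium were compared because a whole cornea holds several layers besides the epithelium. From each gene's rlog value the mean of 9 epithelial markers in the same cornea was taken away (*Krt12* was left out of that mean). *Itga6* then became very uniform within each strain, from -1.53 to -1.46 in BALB/cN (SD 0.03) and from -1.05 to -0.99 in C57BL/6N (SD 0.03). *Lama3* was 0.30 ± 0.11 in BALB/cN and -0.36 ± 0.03 in C57BL/6N (SD, n = 4 each). *Itgb4*, *Itga3* and *Lamb3* also had no overlap on this scale, with differences of 0.20, 0.26 and 0.29. *Itgb1*, *Plec*, *Dst* and *Cd151* overlapped, and *Plec* varied by an SD of only 0.0059 among the BALB/cN corneas. With the stromal marker mean as a covariate, limma called 5 of the 9 genes, in a fit that called 9.37% of all genes: *Itga6*, *Lama3*, *Lamb3* (0.31, adjusted p = 0.0069), *Dst* (0.28, adjusted p = 0.00651) and *Itga3* (0.26, adjusted p = 0.00831). With the epithelial marker mean as a covariate it called *Itga6*, *Lama3* and *Lamb3*, and 8.95% of all genes.

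Conjunctival epithelium also makes hemidesmosomes. Of its 8 markers 5 were called lower in BALB/cN in limma, namely *Krt13* (-2.51, adjusted p = 6.9e-07), *Krt4* (-1.17), *Krt19* (-0.97), *Krt7* (-0.90) and *Muc4* (-0.48), while the 3 that were not called had positive differences: the goblet cell mucin *Muc5ac* (2.19, adjusted p = 0.0225), *Krt18* (0.64, adjusted p = 0.0729) and *Krt8* (0.40, adjusted p = 0.0111). Among the 10 corneal epithelial markers *Epcam* was called higher in BALB/cN (0.73, limma adjusted p = 3.8e-05) and the other 9 were not called. The summed level of Schwann cell markers was lower in every BALB/cN cornea (12.87 to 13.13 against 13.23 to 13.83), with *Ngfr* called (-0.73, limma adjusted p = 0.00156). Those of cornified epidermis markers were likewise lower (9.38 to 9.70 against 9.82 to 10.01) and those of photoreceptor markers higher (7.76 to 8.14 against 7.36 to 7.72) without a called gene. The part of these tissues in the differences of the 9 genes was not tested. Summed markers of corneal endothelium (14.13 to 15.45), blood and lymph endothelium (8.58 to 10.48), macrophages (10.59 to 11.18), skeletal muscle (6.36 to 6.74) and red blood cells (5.98 to 6.09, with *Hba-a1* listed at 0 in all corneas) overlapped between the strains. The blood and lymph endothelium sum was set mostly by *Kdr* (8.06 to 10.33), which was lowest in the stroma-poor corneas. The red blood cell sum was set mostly by *Alas2* (5.79 to 5.93).

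To compare levels between genes, each rlog value was set per length by taking away log2 of the gene's exon length in kb. On this scale *Plec* was highest in both strains (12.47 in BALB/cN and 12.42 in C57BL/6N), followed by *Itgb4* (12.10 and 11.88), *Lama3* (11.78 and 11.10) and *Itga3* (11.12 and 10.84). In BALB/cN the next levels per length were *Cd151* at 10.44, *Dst* at 10.31, *Itgb1* at 10.25 and *Itga6* at 10.23, and the ranges over corneas of each neighbouring pair among these 4 overlapped. In C57BL/6N *Itga6* was the next at 10.70, with a range that overlapped that of *Itga3*, ahead of *Cd151* at 10.29, *Dst* at 10.08 and *Itgb1* at 10.02. *Lamb3* was lowest of the 9 in both strains (8.77 and 8.46), while *Col17a1* exceeded all 9 (14.51 and 14.59). The length chosen matters for genes with many transcripts: per kb of the longest transcript, *Itga6* moved up in the order, to 11.30 in BALB/cN and 11.76 in C57BL/6N.

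**Figure D4:**
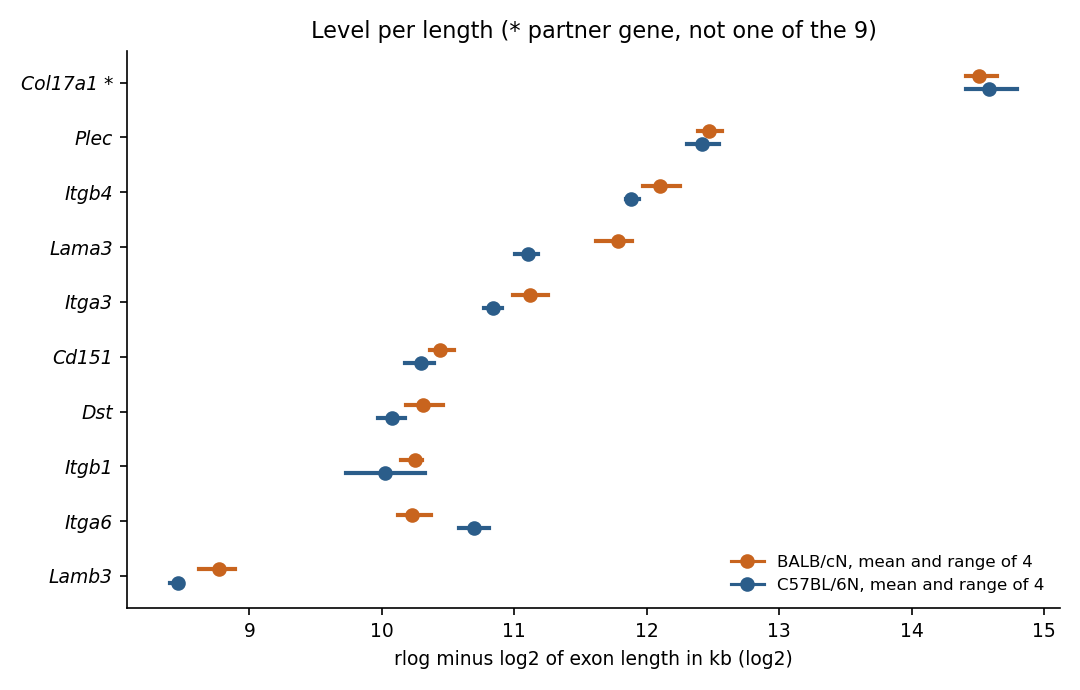
Level per length (rlog minus log2 of exon length in kb, log2 scale) of the 9 genes and, marked by an asterisk, the partner gene *Col17a1*, as mean and range of 4 corneas for BALB/cN (orange) and C57BL/6N (blue). The order runs from *Plec* at 12.47 in BALB/cN down to *Lamb3* at 8.77, and *Itga6* is the gene whose BALB/cN range lies wholly below its C57BL/6N range.

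The table holds 1 value per gene, so the transcripts annotated for each gene are pooled (2 for *Lama3*, 8 for *Itga6*, 20 for *Dst*, 22 for *Plec*). Some exon sequence is shared with other genes. *Plec* shares 205 exon bases with *Parp10* on the same strand (rlog 9.26 to 10.28 over the corneas), a level far below that of *Plec*. *Dst* shares 1037 exon bases with *Gm26788* on the opposite strand (5.89 to 6.43), *Itgb4* 537 with *B230344G16Rik* (3.49 to 3.86), *Lama3* 197 with *Gm29200* (1.56 to 1.80) and *Cd151* 193 with *Gm10575* (6.51 to 7.16), all at low levels. Whether the counting used strand is not given in the sources used here.

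Other adhesion and basement membrane genes were compared in the same fit. Of 82 such genes in 9 lists, 6 were called by limma (7.32%, against 5.74% of all genes tested), with 0 higher and 6 lower in BALB/cN. At an unadjusted limma p under 0.05 were 25 of the 82 (8 higher, 17 lower), where 6009 of all 25402 genes tested reached it. In these lists the median difference was 0.02 against 0.01 over all genes. Among the hemidesmosome and anchoring partners 1 of 8 was called, *Fras1*, an extracellular protein that anchors epithelial basement membranes in development. Its rlog values were 11.83, 11.51, 11.74 and 11.78 in BALB/cN and 12.72, 12.67, 12.49 and 12.42 in C57BL/6N (difference -0.86, SE 0.0891, limma adjusted p = 0.000233). The remaining 7, with *Krt5*, *Krt14*, *Col7a1* and *Erbin* among them, were not called, and the median of the list was -0.08. One of these 7, *Frem2*, was lower in every BALB/cN cornea (-0.43, limma adjusted p = 0.0473). *Krt5* and *Krt14* are also in the epithelial marker list.

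Of 12 other basement membrane genes *Col4a6*, the α6 chain of collagen IV, was called, with the largest difference of any gene in these lists. Its rlog values were 7.70, 6.79, 7.23 and 7.58 in BALB/cN and 9.88, 9.996, 8.91 and 8.93 in C57BL/6N (difference -2.102, SE 0.291, limma adjusted p = 0.00141). The 3 stroma-poor corneas had the lowest *Col4a6* values of their strain. In the other lists 1 gene each was called lower by limma: *Tspan1* of 8 other tetraspanins (-0.91, adjusted p = 0.000201), *Macf1* of 5 other plakins (-0.29, adjusted p = 0.00158), the laminin receptor gene *Bcam* of 5 other laminin receptors (-0.38, adjusted p = 0.00412), and the membrane-bound metalloproteinase gene *Mmp14* of 6 cleavage genes (-0.25, adjusted p = 0.00837). The call of *Mmp14* was lost in 8 of 8 fits that left out 1 cornea (limma adjusted p 0.0147 to 0.0286) and that of *Bcam* in 6 of 8 (limma adjusted p up to 0.0175), while *Fras1*, *Col4a6*, *Tspan1* and *Macf1* were called in 8 of 8. Without the lens and pigment corneas *Fras1* and *Tspan1* were still called. Without the stroma-poor corneas *Fras1* and *Col4a6* were, but *Tspan1* (limma adjusted p = 0.0114) and *Macf1* (limma adjusted p = 0.0147) were not. With the replicate number as a block *Fras1* and *Tspan1* were called, but *Col4a6* (limma adjusted p = 0.0131) and *Macf1* (limma adjusted p = 0.0221) were not. *Tspan1*, *Macf1*, *Bcam* and *Mmp14* encode, in that order, a tetraspanin, a linker of actin and microtubules, a laminin α5 receptor and a matrix protease. Of the 82 genes, 3 were higher and 13 lower without overlap, against 8.75% and 9.58% of all genes tested. The 3 higher ones, none of them called, were *Adamts1* (1.27, limma adjusted p = 0.0112), *Tll1* (0.94, limma adjusted p = 0.0214) and *Hspg2* (0.69, limma adjusted p = 0.0294). *Adamts1* and *Tll1* are cleavage genes, and the median of that list was 0.37.

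No gene was called by limma among 8 other laminin chains (median 0.24, 1 gene at an unadjusted p under 0.05), 15 other integrin chains (median 0.34, 2 genes) or 15 focal adhesion adaptors (median -0.01, 2 genes). Over all genes tested, 6009 of 25402 were at an unadjusted limma p under 0.05. The largest differences in these lists were those of *Lama4* (0.78, SE 0.308, limma adjusted p = 0.157), *Itga4* (0.82, SE 0.563, limma adjusted p = 0.424) and *Fblim1* (-0.39, limma adjusted p = 0.585). *Itga4* was low in the 3 stroma-poor corneas, at 7.36 in BALB/cN replicate 2 and 6.45 and 6.46 in C57BL/6N replicates 3 and 4 against 8.51 to 8.93 in the others.

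**Figure D5:**
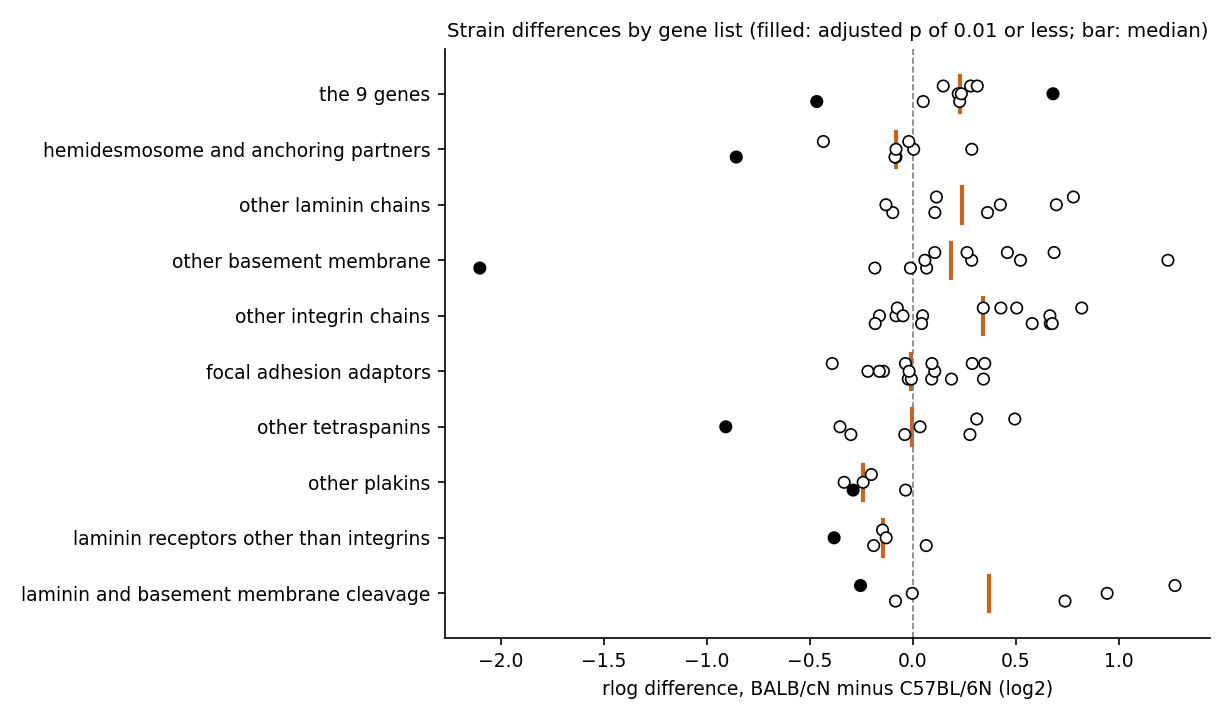
Strain difference on the rlog scale (BALB/cN minus C57BL/6N, log2) of the 9 genes and of 82 other adhesion and basement membrane genes in 9 lists, 1 circle a gene, filled where limma's adjusted p was 0.01 or less, with the median of each list as an orange bar. Filled circles of the 9 lists all lie left of 0, down to *Col4a6* at -2.102, and *Lama3* at 0.68 is the filled circle to the right of 0.

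The genes whose profile over the 8 corneas was most like that of *Itgb4*, each centred on its own mean, were *Alkbh4* (root mean square difference 0.0327), *Slc39a6* (0.0332), *Vdac2* (0.0379), *Urah* (0.0393), *Sertad2* (0.0394) and *Ptp4a2* (0.0424), where the median over 16005 protein-coding genes was 0.183. The mean profile of the 9 genes, in which *Itga6* and *Lama3* pull in opposite directions, was most like those of *Macrod1* (0.0211), *Ston2* (0.0284), *Edn2* (0.029), *Itpka* (0.0308), *Smc6* (0.0316) and *Slf2* (0.0318), against a median of 0.16. *Edn2* and *Itpka* had low mean rlog values (2.92 and 2.31), at which rlog values are strongly shrunken towards the mean.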

How the data were processed

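Strand-specific paired-end libraries were made from total RNA of 8 corneas, 4 per strain. The authors trimmed reads, removed ribosomal and transfer RNA, aligned to strain pseudo-genomes of GRCm38 with TopHat2 2.1.1, counted reads on Ensembl genes with HTSeq 0.7.1 and deposited rlog values made with DESeq2 1.30, which are on a log2 scale, normalized for library size and shrunken towards the gene's mean. No counts were used here, and depth is unknown. Of 54532 genes, 23218 are at 0 in all corneas. All table columns matched a cornea by label.

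Exact permutation tests went over all splits of the corneas (Python 3.11.15, numpy 2.4.6). From the rlog values the 25402 genes with a mean of at least 0 were compared with limma 3.58.1 (R 4.3.3). This used lmFit, eBayes with trend, Benjamini-Hochberg adjustment and a threshold of 0.01. The fit was tested on simulated data. Exon lengths and positions came from GENCODE M21, and promoters from RefSeq, which held 5 of the 9 genes. The 9 genes, the lists and the marker genes were chosen with earlier results of these data known, and 1 gene of the lists is not reported here. Named genes are the 9, the called genes of each list (else its largest difference), *Krt12*, *Col17a1*, and the 6 nearest profiles of *Itgb4* and of the mean. *Muc5ac*, *Krt8*, *Krt18*, *Kera*, *Krt5*, *Krt14*, *Col7a1*, *Erbin*, *Frem2*, *Adamts1*, *Tll1*, *Hspg2*, *Kdr* and *Alas2* were named after their values were seen. Alternatives were the variance trend, robust fitting, filters, centring, quantile normalization, an empirical null, marker covariates, a replicate block, a threshold of 0.05 and leaving out corneas.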

Additional observations from a re-analysis of the deposited data

Results flagged for a closer look

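In 3 of 72 groups of 4 corneas examined, 1 cornea stood far from the other 3, measured as its gap to the nearest cornea over the range of the group and compared with the critical value of Dixon's test. Chance gives about 5% of groups, or 3.6 of 72. The summed stromal keratocyte markers in BALB/cN had a gap of 0.965, with replicate 2 at 17.07 and the next cornea at 18.28. The summed corneal endothelium markers in BALB/cN had a gap of 0.933, again through replicate 2 (14.62 against 15.21). The summed red blood cell markers in BALB/cN had a gap of 0.932 through replicate 1 (5.98 against 6.08), which is a difference of little size. None of the 9 hemidesmosome and laminin-332 genes had a cornea that far from the others in either strain.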

How the results depend on the processing

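Of the 9 genes 2 were called. That count was 1 under median centring, under the replicate block and without the lens and pigment corneas, 5 under quantile normalization, with the stromal covariate and at a threshold of 0.05, 0 under the empirical null (3 at an unadjusted p under 0.05), and 2 to 3 when 1 cornea was left out. Of the 82 other genes 6 were called, and the count was 2 under the block and without the lens and pigment corneas, 0 under the empirical null (8 at an unadjusted p under 0.05), 19 with the stromal covariate, 17 with the epithelial covariate, 15 at 0.05, and 4 to 6 when 1 cornea was left out. Under median centring 1 gene was called higher and 3 lower. Of 189 differences of the 9 genes over 21 alternatives, 170 kept their direction and side of the threshold, 5 lost a call, 13 gained one and 1 turned. *Itga6* also lost its call under the block (limma adjusted p = 0.0168), and under the empirical null neither *Itga6* (adjusted p = 0.527) nor *Lama3* (0.338) was called. *Lama3* was called by limma in all other fits. Under median centring *Plec* turned to -0.024, and *Col17a1* was 0.026 without the stroma-poor corneas. The leave-one-out ranges of the within-cornea differences were -0.72 to -0.66 for *Itga6* minus *Itgb4*, -0.035 to 0.14 for *Itga3* minus *Itgb1*, -0.11 to 0.079 for *Itgb4* minus *Itgb1*, 0.30 to 0.41 for *Lama3* minus *Lamb3*, -0.24 to -0.12 for *Plec* minus *Dst* and 0.55 to 0.68 for *Cd151* minus *Itga6*. Without BALB/cN replicate 3 the pairs other than those with *Itgb1* reached an exact permutation p of 0.0429 after adjustment. Under the block no pair can pass, since 4 sign flips allow no p below 0.125. The replicate numbers do not pair the corneas (same-numbered deviations correlated at 0.31, -0.53, -0.20 and -0.45). Over all genes 1458 were called, against 958 (413 higher, 545 lower) under median centring, which moved the median difference to -0.07, 2380 and 2274 with the stromal and epithelial covariates, 554 under the block, 2842 at 0.05, 0 under the empirical null (1730 at an unadjusted p under 0.05), 457 without the lens and pigment corneas, 852 without the stroma-poor corneas and 951 to 1162 when 1 cornea was left out. Under quantile normalization 1443 of the 25402 genes (5.68%) were called. The settings without the lens and pigment or the stroma-poor corneas were chosen after seeing the data, and fewer corneas leave fewer degrees of freedom. The causes of the other changes were not tested. With 4 corneas a strain and no counts, small differences could not be resolved.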
